A study of Mus musculus with 5 samples.

Results

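Complex I, the NADH dehydrogenase that passes electrons from NADH to ubiquinone in the inner mitochondrial membrane, was followed through the RNA of its nuclear genes. The members are the 34 of 12930 genes in the deposited table whose name begins with Nduf. They comprise 25 subunits, 7 assembly factors of the Ndufaf series, and 2 genes set apart because their products are not complex I subunits. All 34 had a value in each of the 4 siRNA libraries. Of the listed subunits, the table held 5 of 7 core subunits, 7 of 9 accessory subunits of the peripheral arm, 4 of 9 of the proximal membrane arm, 8 of 11 of the distal membrane arm, and Ndufab1, which sits in both arms. The other listed subunits and Ndufaf2 are not analysed here.

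Complex I is L-shaped. Its peripheral arm reaches into the matrix, takes electrons from NADH at a flavin and carries them over iron-sulphur clusters to ubiquinone, while its membrane arm pumps protons. The core of the membrane arm is encoded in mitochondrial DNA and the rest in the nucleus, so assembly draws on both genomes and on dedicated assembly factors. None of the 7 mitochondrially encoded complex I mRNAs is analysed here.

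The series holds 5 libraries of OG2 mouse embryonic stem cells, with strain given as (CBA/CaJxC57BL/6J) with 129Sv/Jae: 2 after siRNA against Dhx30 (siDhx30), 2 after siRNA against Tfam (siTfam) and 1 negative control (NC). Dhx30 encodes an RNA helicase of mitochondrial RNA granules, and Tfam the protein that packages and transcribes mitochondrial DNA. All cells had 24 h in N2B27 medium with LIF, PD0325901 and CHIR99021, and were then transfected, at 50 nM for the siRNAs, during 36 h in medium with bFGF, Activin A and serum replacement. The labels give no age and do not say that replicates were separate cultures, so the p-values reflect spread among these libraries alone, and that spread may be technical.

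Each deposited value is a log2 ratio for 1 siRNA library, read here as against the NC library and turned to siRNA over NC, so that NC lies at 0. The headings give neither sign nor denominator. The sign was inferred from missing values: all 1574 values of the 842 genes that lack a value elsewhere were negative as deposited. If genes were kept where either library reached a minimum count, such genes must be low in NC and higher in the siRNA library. With the deposited sign kept, each direction below turns round. Under the turned sign Dhx30 lay at -0.40 and -0.20 in the siDhx30 libraries and Tfam at -0.28 and -0.017 in the siTfam libraries. Neither passed (limma adjusted p = 0.998 and 0.987), so a knockdown at the RNA level was not established. No source used here gives read totals, so the depth behind a ratio is unknown. Ratios carry no level, so the pluripotent identity could not be checked: 4 of 12 listed pluripotency markers were found, and Pou5f1, Sox2 and Nanog are not analysed here. A lower ratio could be less RNA per cell or fewer cells expressing a gene, which bulk RNA cannot tell apart.

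No Nduf gene passed an adjusted p of 0.05 in any comparison. In the limma test with Benjamini-Hochberg adjustment over 12088 genes, 0% of all genes passed in siDhx30 against NC, in siTfam against NC, or in siDhx30 against siTfam. At an unadjusted p under 0.05, 0 of 34 Nduf genes were called in siDhx30 against NC, where the background was 2.56% of genes higher and 2.47% lower. In siTfam against NC 1 of 34 was called, Ndufa12, which was higher, against a background of 3.04% higher and 3.08% lower. Between siDhx30 and siTfam 0 of 34 were called, against 1.29% higher and 1.50% lower. The adjusted p of the members ran from 0.776 to 0.998 for siTfam, and none was below 0.998 for siDhx30 or below 0.999 for the difference.

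**Figure D1:**
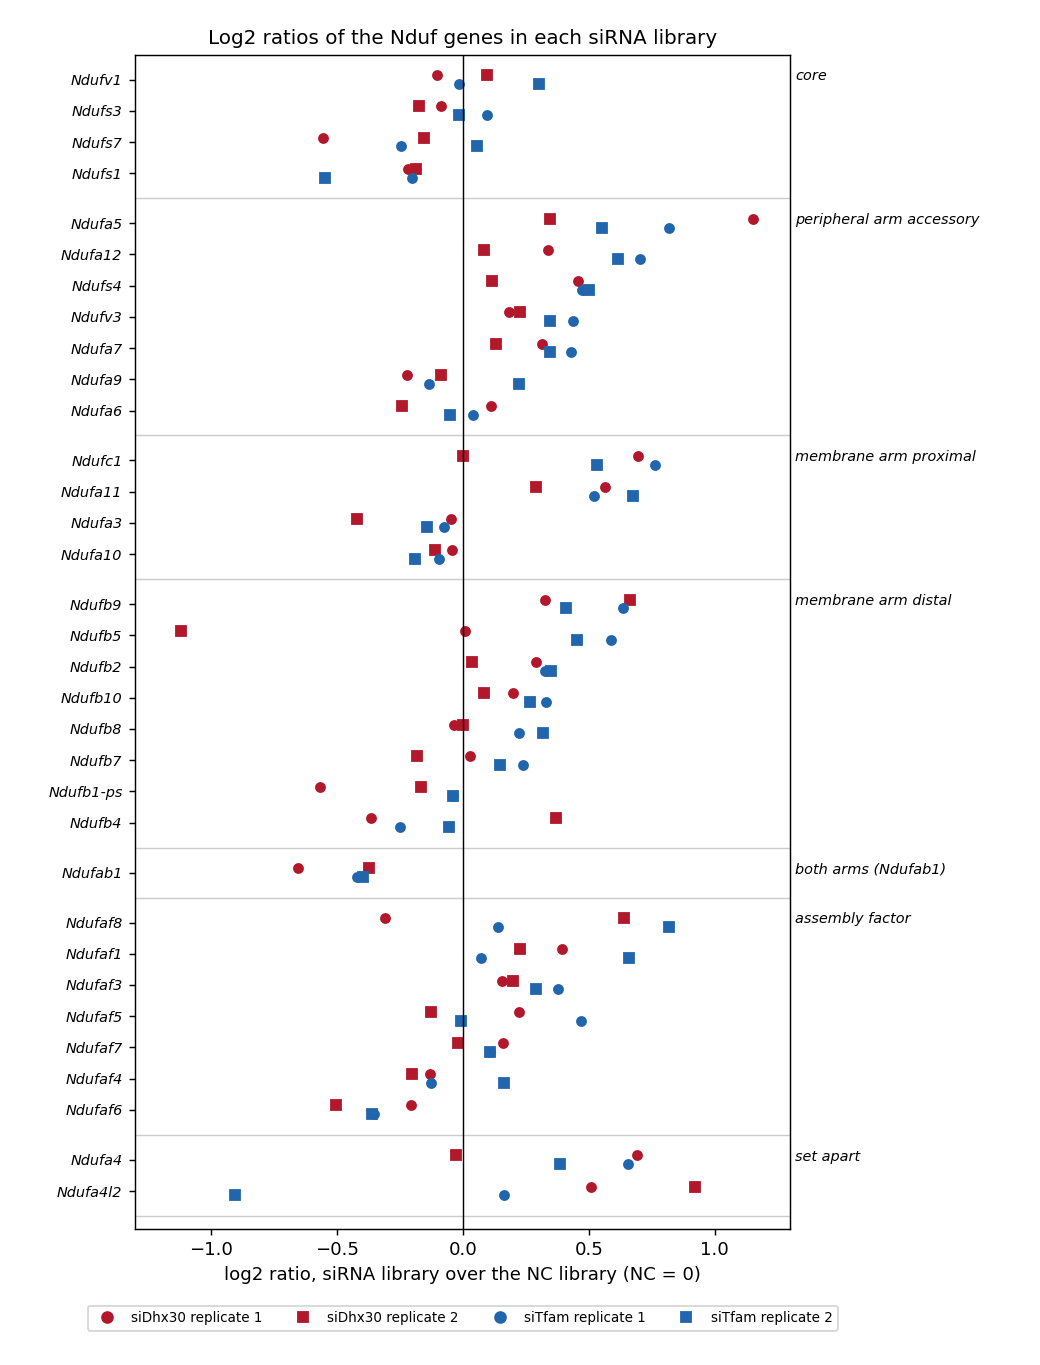
Log2 ratio of 33 Nduf genes in the 2 siDhx30 (red) and 2 siTfam (blue) libraries over the NC library, which is the line at 0; genes are grouped by their place in complex I. Most accessory subunits of the peripheral arm lie right of 0 in both siTfam libraries, the core subunits lie on both sides of 0 in siTfam, and Ndufb5 has 1 siDhx30 library at -1.12.

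In the siTfam libraries, complex I subunits leaned above NC. Of 25 subunits 17 had a mean log2 ratio above NC, or 68%, beside 47.3% of all genes tested, and 8 had a mean below it, beside 52.7%, with a median of 0.19 beside -0.020. Both siTfam libraries were above NC for 13 subunits and below it for 6, where the background was 32.0% and 34.4% of genes. The median was 0.22 in siTfam replicate 1 and 0.27 in replicate 2. No subunit passed by itself, and no test of the list was made.

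The accessory subunits of the peripheral arm showed the highest ratios. In siTfam 6 of 7 were above NC, with a median of 0.39. Ndufa12, an accessory subunit of the NADH-oxidising module and a relative of the assembly factor Ndufaf2, lay at 0.70 and 0.61 in siTfam, with a mean log2 ratio of 0.66 (SE 0.21, n = 2; 95% interval 0.071 to 1.25). Both siTfam libraries were close to each other, and the limma adjusted p was 0.776. Every SE given here is the limma SE of the comparison, not that of 2 libraries alone. It uses spread from both siRNA groups, moderated over genes, and against NC it also counts the single NC library. Ndufa5, a subunit of the ubiquinone-reducing module, lay at 0.82 and 0.55 in siTfam, a mean of 0.69 (SE 0.41, n = 2; limma adjusted p = 0.942). Its siDhx30 libraries, at 1.15 and 0.34, lay on either side of the siTfam values. Ndufs4, whose loss in mice models Leigh syndrome, lay at 0.47 and 0.50 in siTfam, a mean of 0.49 (SE 0.23, n = 2). The small accessory subunit Ndufv3 lay at 0.44 and 0.35 in siTfam, and Ndufa7 at 0.43 and 0.35. These 5 genes were above NC in all 4 libraries. Ndufa6, which holds an acyl carrier protein on the complex, lay at 0.040 and -0.050 in siTfam. Ndufa9, a reductase-like subunit near the foot of the arm, lay at -0.14 and 0.22, so neither gene had its siTfam libraries on the same side of NC.

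The core subunits carry the flavin and iron-sulphur clusters or form the ubiquinone site. Ndufs1, the large iron-sulphur subunit, lay at -0.20 and -0.54 in siTfam and was below NC in all 4 libraries. Ndufv1, which binds NADH and the flavin, lay at -0.013 and 0.30. Ndufs3, which belongs to the ubiquinone module, lay at 0.095 and -0.016 in siTfam. Ndufs7, which carries the last iron-sulphur cluster before ubiquinone, lay at -0.25 and 0.055 in siTfam. Of these genes Ndufv1 and Ndufs3 had a siTfam mean above NC, at 0.145 and 0.040, and Ndufs1 and Ndufs7 a mean below it, at -0.37 and -0.095; none of the 4 had both siTfam libraries above NC. The difference between core and accessory subunits was not tested.

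In the membrane arm, 2 of 4 proximal and 6 of 8 distal subunits were above NC in siTfam, with medians of 0.244 and 0.285. Ndufa11, a proximal membrane subunit, lay at 0.52 and 0.67 in siTfam, a mean of 0.60 (SE 0.22, n = 2; limma adjusted p = 0.819), and at 0.56 and 0.29 in siDhx30. Ndufc1 lay at 0.76 and 0.53 in siTfam, with a mean of 0.65 (SE 0.365). Ndufa3 and Ndufa10, the second of which has a nucleoside kinase fold, were below NC in both siTfam libraries, at -0.076 and -0.14 and at -0.093 and -0.19. Among distal subunits, Ndufb9, which binds the acyl carrier protein, lay at 0.64 and 0.41 in siTfam. Ndufb2 lay at 0.33 and 0.35, Ndufb10 at 0.33 and 0.27, Ndufb8 at 0.22 and 0.32, and Ndufb7 at 0.24 and 0.15. Each of these 5 distal genes was above NC in both siTfam libraries, as was Ndufb5 at 0.59 and 0.45. Ndufb4 lay at -0.25 and -0.053, and Ndufb1-ps at -0.040 and -0.038. GENCODE classes Ndufb1-ps as a long non-coding RNA at a bidirectional promoter, so it is counted with the distal subunits by its name alone; the other 24 subunits are protein-coding. Ndufab1, the mitochondrial acyl carrier protein, had the lowest siTfam mean of the members, with -0.42 and -0.40 in siTfam and -0.65 and -0.37 in siDhx30. All 4 libraries therefore lay below NC for Ndufab1.

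Across both siRNAs, 11 of 34 Nduf genes were above NC in all 4 libraries, or Ndufa5, Ndufa7, Ndufa11, Ndufa12, Ndufb2, Ndufb9, Ndufb10, Ndufs4, Ndufv3, Ndufaf1 and Ndufaf3. The background was 20.1% of all genes. Another 6 were below NC in all 4, namely Ndufab1, Ndufs1, Ndufb1-ps, Ndufa3, Ndufa10 and Ndufaf6, where the background was 22.4%. These counts share the single NC library, which enters every ratio.

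The start regions of 5 genes, chosen after their values were seen, are shown as examples. They do not stand for the members above or below NC, whose motif counts follow the sequences. The sequences are RefSeq windows on GRCm38.p6, from 250 bases before to 50 after a transcript start, and 28 of 34 Nduf genes matched one by symbol. Capitals mark matches on either strand to the NRF1 motif (GCGCA, then any base, then GCGC), the ETS motif CCGGAAG, the YY1 motif (AAGAT followed directly by GGCGG) or the ERR motif TCAAGGTCA. The first 4 genes were above NC in all 4 libraries and the last was below it in all 4. Genes with a motif make up a larger share of the first 4 than of all members above NC in all 4 libraries.
Ndufa12 (chr10:94198785-94199084, plus strand): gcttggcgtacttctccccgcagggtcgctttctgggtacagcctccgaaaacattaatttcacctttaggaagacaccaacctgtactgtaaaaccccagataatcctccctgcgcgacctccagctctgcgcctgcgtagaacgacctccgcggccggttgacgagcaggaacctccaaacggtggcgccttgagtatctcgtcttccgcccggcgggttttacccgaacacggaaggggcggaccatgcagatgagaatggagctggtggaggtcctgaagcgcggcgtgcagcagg
Ndufa5 (chr6:24527477-24527776, minus strand): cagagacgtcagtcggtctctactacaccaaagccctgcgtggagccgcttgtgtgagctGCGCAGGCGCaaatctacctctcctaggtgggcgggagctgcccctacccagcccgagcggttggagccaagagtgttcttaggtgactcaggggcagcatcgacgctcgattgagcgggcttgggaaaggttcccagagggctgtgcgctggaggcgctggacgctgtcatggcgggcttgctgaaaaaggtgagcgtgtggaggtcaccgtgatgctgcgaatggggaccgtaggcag
Ndufa11 (chr17:56717512-56717811, plus strand): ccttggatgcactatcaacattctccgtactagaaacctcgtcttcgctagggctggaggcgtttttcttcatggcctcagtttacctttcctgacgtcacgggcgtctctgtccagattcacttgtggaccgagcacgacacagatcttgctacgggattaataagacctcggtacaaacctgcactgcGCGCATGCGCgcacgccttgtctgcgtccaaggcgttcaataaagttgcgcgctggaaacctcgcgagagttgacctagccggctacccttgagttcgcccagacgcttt
Ndufs4 (chr13:114388045-114388344, minus strand): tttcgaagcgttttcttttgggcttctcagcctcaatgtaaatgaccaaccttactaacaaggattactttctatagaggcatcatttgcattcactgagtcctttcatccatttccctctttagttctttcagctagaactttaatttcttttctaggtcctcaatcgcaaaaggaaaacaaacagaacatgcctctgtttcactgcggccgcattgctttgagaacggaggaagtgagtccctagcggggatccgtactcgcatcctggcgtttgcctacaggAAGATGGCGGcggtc
Ndufab1 (chr7:122101799-122102098, minus strand): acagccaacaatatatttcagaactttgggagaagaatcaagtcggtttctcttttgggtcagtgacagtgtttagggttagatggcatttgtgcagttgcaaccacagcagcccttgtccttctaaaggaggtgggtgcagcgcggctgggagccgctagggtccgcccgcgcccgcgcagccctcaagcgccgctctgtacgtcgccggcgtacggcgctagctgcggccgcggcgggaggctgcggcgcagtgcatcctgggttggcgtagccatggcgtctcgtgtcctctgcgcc
The Ndufa5 and Ndufa11 windows held an NRF1 match and the Ndufs4 window a YY1 match just after the start, while the Ndufa12 and Ndufab1 windows held none of the 4 motifs. Over the 28 Nduf genes with a window, 21.4% held the NRF1 motif, 14.3% the ETS motif, 14.3% the YY1 motif and 0% the ERR motif. Over all 27025 genes with a window, whether or not they were in the deposited table, the shares were 5.19%, 9.93%, 0.995% and 0.466%. Shares among the genes tested were not computed, so no enrichment can be read from these figures. Among the 11 genes above NC in all 4 libraries, 10 had a window, and 2 of these held the NRF1 motif, 1 the ETS motif and 1 the YY1 motif. Among the 6 below NC in all 4, 3 had a window and none held a motif. NRF1 and YY1 letters were also seen in windows of genes without a steady side: Ndufb4, with 3 NRF1 matches counted over both strands, lay on both sides of NC. A match is a description of letters, not a binding site.

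In the siDhx30 libraries the subunits did not lean away from NC. Of 25 subunits 11 had a mean above NC, or 44%, beside 48.1% of all genes, and 14 had a mean below it, beside 51.9%, with a median of -0.017 beside -0.012. The median was 0.00030 without siDhx30 replicate 1, 0.0094 without siDhx30 replicate 2 and 0.016 with length and GC trends removed, so its sign is not settled. Both siDhx30 libraries were above NC for 9 subunits and below it for 8, where the background was 32.1% and 34.9% of genes. Among the 13 subunits without an exon that overlaps another gene, 8 had a mean above NC, with a median of 0.14. The core subunits had a median of -0.13, and Ndufs7 among them lay at -0.55 and -0.15. Of the 7 peripheral accessory subunits 5 had a mean above NC, with a median of 0.21. The highest mean was that of Ndufa5, at 0.75 (SE 0.41, n = 2), and the lowest that of Ndufb5, at -0.56 (SE 0.53, n = 2). The Ndufb5 mean rests on siDhx30 replicate 2, at -1.12, since replicate 1 lay at 0.0094. The siDhx30 replicates lay further apart than those of siTfam: the median gap between replicates over subunits was 0.26 in siDhx30 and 0.098 in siTfam, beside 0.23 and 0.24 over all genes.

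**Figure D2:**
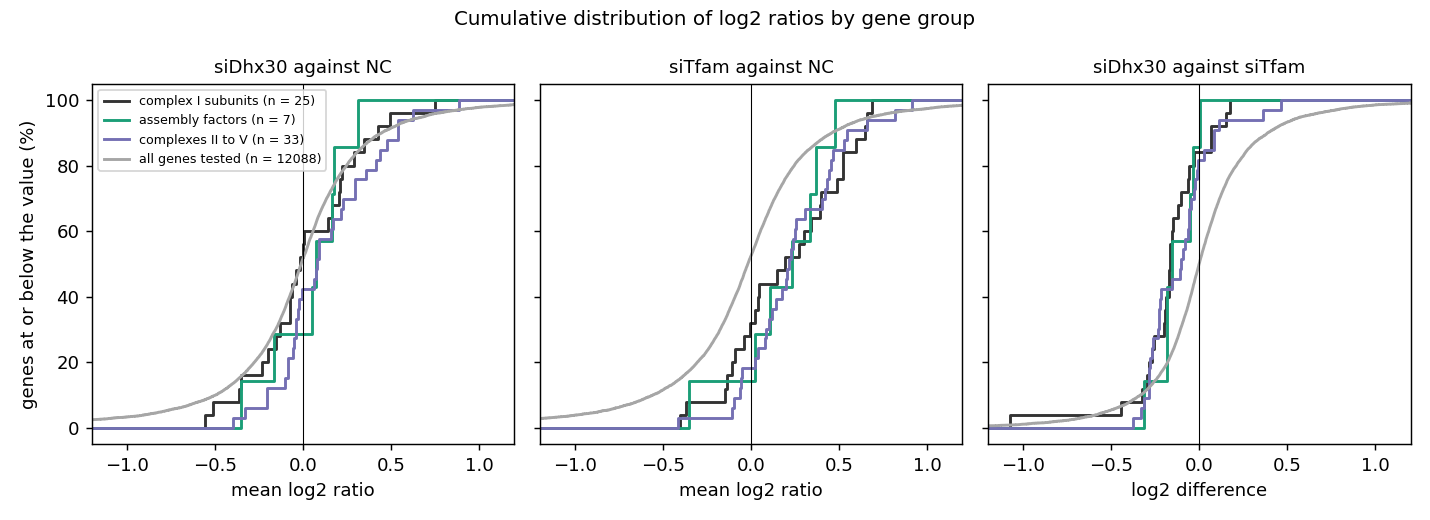
Cumulative share of genes at or below each mean log2 ratio (left and middle) or log2 difference (right), for complex I subunits, assembly factors, nuclear subunits of complexes II to V and all genes tested. The complex I curve follows that of all genes in siDhx30 against NC, lies right of it in siTfam against NC over most of its range, and left of it in siDhx30 against siTfam, close to complexes II to V.

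The direct comparison of siDhx30 with siTfam does not involve the NC library. Of 25 subunits 21 were lower in siDhx30 than in siTfam, where 50.2% of all genes were, and 4 were higher, where 49.8% were, with a median difference of -0.17 beside -0.0015 over all genes. The libraries of the groups did not overlap for 11 subunits with siDhx30 lower, where the background was 14.3% of genes, and for 0 with siDhx30 higher, where it was 14.7%. Taken by replicate number, the median difference was -0.12 for number 1 and -0.21 for number 2. The ratios of single libraries to NC were correlated with transcript length and GC content. Over 9257 protein-coding genes the Spearman correlation of the ratio with GC content was -0.33, -0.079, -0.24 and -0.074. The order is siDhx30 replicates 1 and 2, then siTfam replicates 1 and 2. The correlation with transcript length was 0.18, 0.031, 0.056 and -0.18 in the same order. No correlation of the difference itself was computed. The median length of the longest transcript was 1386 bases for the subunits and 3105 for all genes tested, and its median GC content was 52.1% and 49.4%. With both trends removed the median difference was -0.055 over 24 subunits, beside 0.0056 over all genes fitted, and 16 of 24 were lower. With the same trends removed, the siTfam median against NC was 0.17, with 15 of 24 above NC.

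Among subunits, the differences furthest from 0 were those of Ndufb5, Ndufa12 and Ndufb1-ps. Ndufb5, a membrane arm subunit, lay at 0.0094 and -1.12 in siDhx30, against 0.59 and 0.45 in siTfam, a difference of -1.08 (SE 0.43; limma adjusted p = 0.999). The groups did not overlap, but leaving out siDhx30 replicate 2 gave a difference of -0.51, and leaving out siDhx30 replicate 1 gave -1.64. An exon of Ndufb5 overlaps Mrpl47 on the opposite strand, whose own ratios were -0.17 and -0.17 in siDhx30, and -0.0096 and 0.11 in siTfam. Strand use is not stated, so reads of both genes cannot be told apart. Ndufa12 lay at 0.34 and 0.082 in siDhx30, against 0.70 and 0.61 in siTfam, a difference of -0.45 (SE 0.17; 95% interval -0.93 to 0.032; limma adjusted p = 0.999). Its siDhx30 libraries were both lower than its siTfam libraries. Ndufb1-ps lay at -0.57 and -0.17 in siDhx30, against -0.040 and -0.038 in siTfam, a difference of -0.33 (SE 0.20). Ndufb8 and Ndufb7, also of the distal membrane arm, differed by -0.29 (SE 0.15) and -0.27 (SE 0.165), with no overlap of libraries. The other subunits without overlap, all lower in siDhx30, were Ndufa7, Ndufb2, Ndufb10, Ndufs3, Ndufs4 and Ndufv3, with differences from -0.16 to -0.20. Ndufs1, with a difference of 0.17 (SE 0.19), Ndufb4, Ndufa10 and Ndufa5 were the 4 subunits with a mean higher in siDhx30, and their libraries overlapped.

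**Figure D3:**
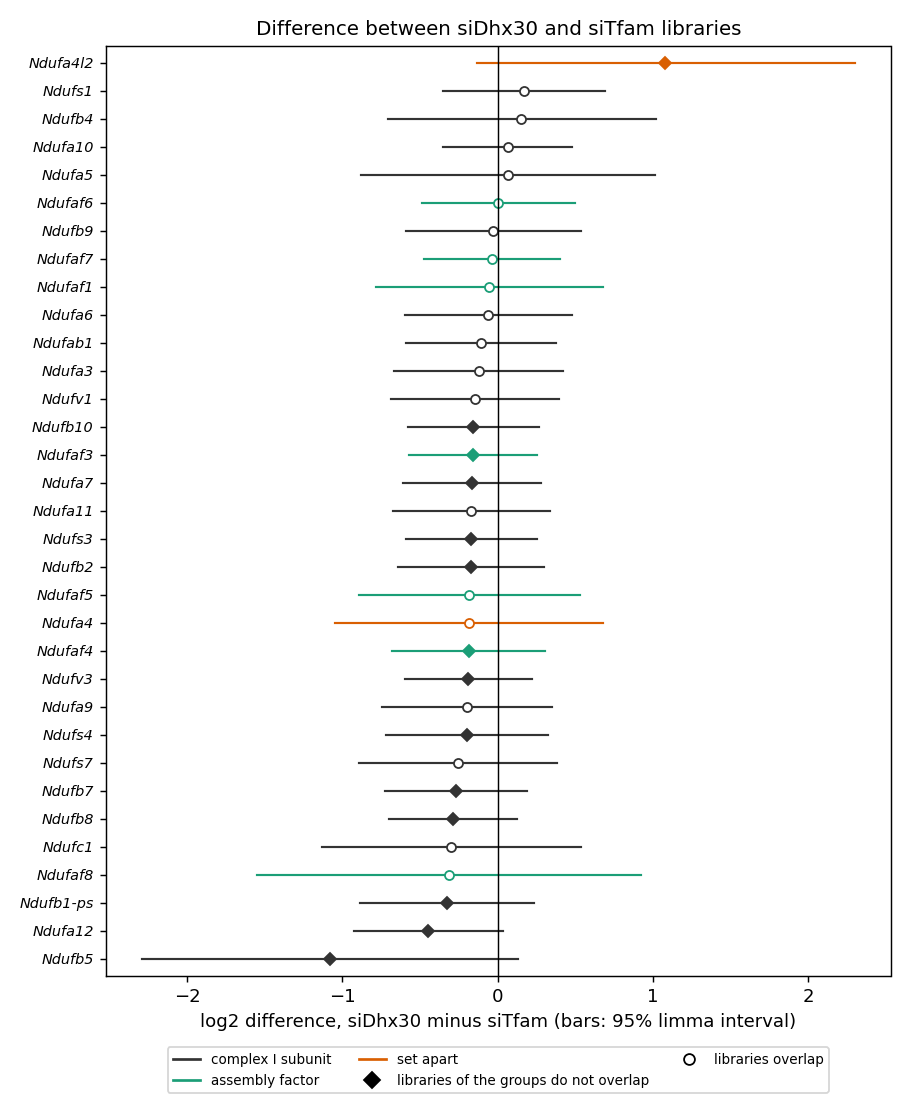
Log2 difference, siDhx30 minus siTfam, of 33 Nduf genes, each with its 95% limma interval; filled diamonds mark genes whose siDhx30 and siTfam libraries do not overlap. Ndufb5 is lowest at -1.08 and Ndufa4l2 highest at 1.08, and every interval includes 0.

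**Figure D4:**
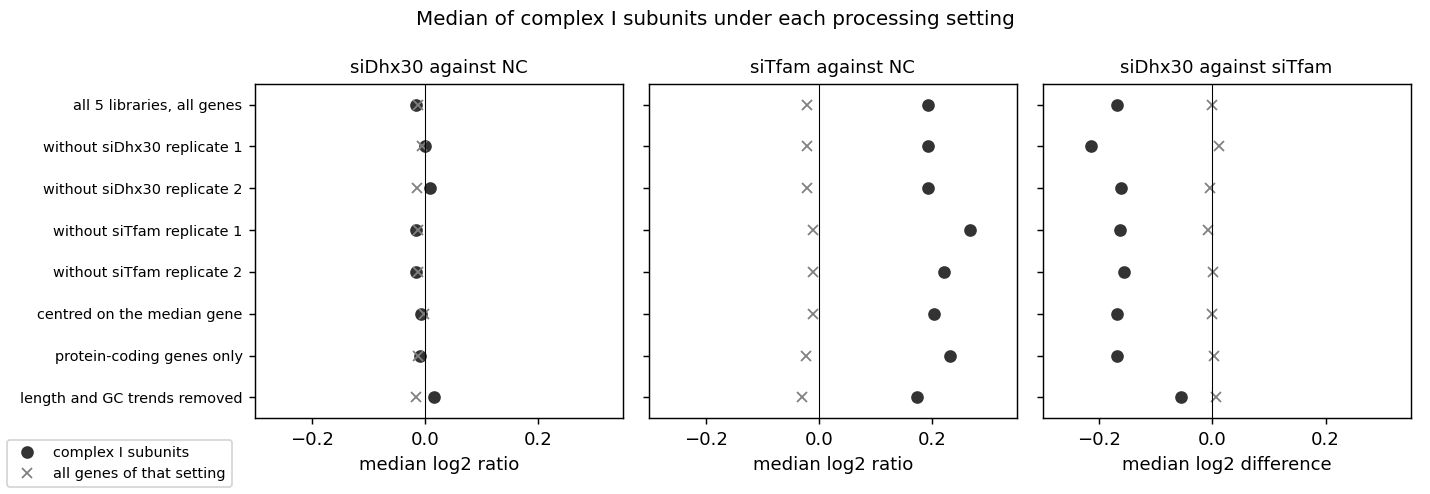
Median log2 ratio (left and middle) or difference (right) of the complex I subunits, as filled circles, and of all genes in the same setting, as crosses, for all 5 libraries and for 7 alternatives. The siTfam median lies between 0.17 and 0.27 throughout, and the difference is -0.055 once length and GC trends are removed.

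Assembly factors build the modules of the complex and are not part of the finished enzyme. In siTfam 6 of 7 had a mean above NC, with a median of 0.23, and in siDhx30 5 of 7, with a median of 0.072; the siDhx30 mean was below that of siTfam for 6 of 7, at a median difference of -0.16. These medians rest on single libraries: without siTfam replicate 2 the siTfam median was 0.11, without siDhx30 replicate 1 the siDhx30 median was -0.018, without siDhx30 replicate 2 it was 0.15, and the median difference became -0.0073 when siDhx30 replicate 2 was dropped or -0.037 when siTfam replicate 2 was. After the trends in transcript length and GC content were taken out, the medians were 0.061 in siTfam and 0.024 in siDhx30, and the median difference was -0.061. Ndufaf3, which acts early with Ndufaf4 on the ubiquinone module, had ratios of 0.15 and 0.20 in siDhx30 libraries, against 0.38 and 0.29 in siTfam libraries. Its siDhx30 libraries were both lower, with a difference of -0.16 (SE 0.15; limma adjusted p = 0.999), and an exon overlaps Impdh2 on the opposite strand. Ndufaf4 was at -0.132 and -0.202 in siDhx30, against -0.125 and 0.164 in siTfam, so it did not follow Ndufaf3 above NC. Its siDhx30 libraries were also both lower, narrowly, with a difference of -0.19 (SE 0.18). The libraries did not overlap for 2 of 7 assembly factors with siDhx30 lower, where the background was 14.3% of genes. With siDhx30 higher they did so for 0, where it was 14.7%. Ndufaf1, a scaffold factor for the membrane arm, was at 0.39 and 0.23 in siDhx30, against 0.071 and 0.66 in siTfam, with both pairs above NC and overlapping. Ndufaf6, needed early in assembly around the mitochondrially encoded ND1, was the assembly factor below NC in all 4 libraries, with -0.21 and -0.50 in siDhx30 and -0.35 and -0.36 in siTfam. Its mean was -0.36 in siTfam (SE 0.22, n = 2; limma adjusted p = 0.946). Ndufaf5, which hydroxylates an arginine of Ndufs7, was at 0.22 and -0.13 in siDhx30, against 0.47 and -0.0085 in siTfam. Its partner Ndufaf8 was at -0.31 and 0.64 in siDhx30, against 0.14 and 0.82 in siTfam. For this pair the replicates of either siRNA lay far apart, and in opposite order: Ndufaf5 was higher in replicate 1 and Ndufaf8 in replicate 2. Ndufaf7, an arginine methyltransferase that acts on the complex, lay at 0.16 and -0.018 in siDhx30 and at 0.11 in both siTfam libraries, close to NC.

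Complex I assembly also uses factors outside the Nduf names, of which 9 of 14 listed were found. Of these 5 had a mean above NC in siDhx30 and 7 in siTfam, with medians of 0.0097 and 0.15. None passed, as for the Ndufaf genes. Acad9, a flavoprotein of the same membrane arm assembly complex as Ndufaf1, had ratios of 0.23 and 0.27 in siDhx30, and its siTfam libraries had 0.225 and 0.277. Timmdc1, a membrane factor of the ND1 region, had ratios of -0.33 and -0.099 in siDhx30, and its siTfam libraries had -0.23 and -0.56. Of the 9 factors 2 were above NC in all 4 libraries, Acad9 and Tmem126b, and 1 was below it in all 4, Timmdc1. The background was 20.1% and 22.4% of all genes. Tmem126b had ratios of 0.044 and 0.22 in siDhx30, and its siTfam libraries had 0.17 and 0.14.

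The 2 genes set apart have Nduf names only. Ndufa4 encodes a protein now assigned to complex IV and was measured at 0.69 and -0.027 in siDhx30, against 0.65 and 0.39 in siTfam. Ndufa4l2, its hypoxia-induced relative, was measured at 0.51 and 0.92 in siDhx30, against 0.16 and -0.90 in siTfam. It had the highest difference of the members, siDhx30 minus siTfam, with a value of 1.08 (SE 0.43; 95% interval -0.13 to 2.30; limma adjusted p = 0.999) and no overlap of libraries. Leaving out siTfam replicate 2 gave a difference of 0.55, and leaving out siTfam replicate 1 gave 1.62. An exon of Ndufa4l2 overlaps Shmt2 on the opposite strand, whose ratios were -0.26 and -0.012 in siDhx30, and -0.13 and 0.12 in siTfam.

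The nuclear subunits of complexes II to V were set beside complex I. Of 33 such genes 19 had a mean above NC in siDhx30 and 27 in siTfam, with medians of 0.080 and 0.215. Between siDhx30 and siTfam 27 of 33 were lower in siDhx30, with a median difference of -0.105. That difference was -0.041 without siDhx30 replicate 2, with 14 of 33 higher in siDhx30, -0.17 without siDhx30 replicate 1, with 12 of 33 higher, and -0.17 without siTfam replicate 1, with 9 of 33 higher. It was -0.056 with length and GC trends removed, with 13 of 32 higher. The siDhx30 median was 0.016 without siDhx30 replicate 1, and the siTfam median was 0.12 with the trends removed. The corresponding complex I values were 11 and 17 of 25 above NC, and 21 of 25 lower in siDhx30. No difference between complex I and the other complexes was tested. All 4 primitive endoderm markers with complete values had a siTfam mean below NC, at a median of -1.08 beside -0.37 in siDhx30. None passed in siTfam (smallest limma adjusted p = 0.79). In siDhx30, 3 of the 4 had a mean below NC and Col4a1 lay at 0.016. Gata6, a further marker on that list, had a single value, 1.58 in siDhx30 replicate 2. Every value of a gene with a missing value lies above NC under the turned sign, so this value gives no direction. Of 3 fibroblast markers found, 2 were above NC in either siRNA group. Their part in the complex I ratios was not tested.

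Reads could be shared with other genes for part of the members. In the GENCODE M21 annotation of GRCm38, 14 of 34 Nduf genes have an exon that overlaps another gene. Besides those named above, they include Ndufs1 (Eef1b2 and Ino80dos), Ndufa11 (Vmac), Ndufb1-ps (Cpsf2) and Ndufab1 (Gm44986), all on the opposite strand. Ndufb2 (Gm42420), Ndufb8 (Gm20538) and Ndufb9 (Gm49356) overlap a gene on the same strand, and Ndufb2 also overlaps Braf and Gm16272 on the opposite strand. Among the 13 subunits without such an overlap, 9 were above NC in siTfam with a median of 0.30, 8 were above NC in siDhx30 with a median of 0.14, and 10 were lower in siDhx30 than in siTfam with a median difference of -0.17. Ndufab1, Ndufb4 and Ndufa11 have processed pseudogene copies (Ndufab1-ps, Ndufb4c and Ndufa11b), so their values are less certain. Copies were looked up by name for these genes only, and the other members were not searched for copies. On GRCm38, Ndufa12 (ENSMUSG00000020022.17) lies on the plus strand of chromosome 10 from 94198720 to 94221443. Ndufb5 (ENSMUSG00000027673.12) lies on the plus strand of chromosome 3 from 32736990 to 32751566. Ndufab1 (ENSMUSG00000030869.11) lies on the minus strand of chromosome 7 from 122085403 to 122101886.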

How the data were processed

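The authors' table holds a log2 fold per gene in 1 column for each siRNA library, per the file headers. Per the submitters' processing notes, GRCm38 was used with HISAT2, featureCounts, DESeq2 and bcl2fastq; their settings, strand use and read totals were not given in any source used, so no counting error could be attached. Signs were turned to siRNA over NC. Of 12930 names, 12660 matched GENCODE M21 symbols. limma 3.58.1 (R 4.3.3) was fitted to the 12088 complete genes with NC as a column of zeros, which assumes that NC varies like the siRNA libraries (2 residual degrees of freedom; robust=TRUE, no trend). The fit was also run on simulated data with independent noise, an NC that varied like the siRNA libraries, and planted log2 changes of at least 1. That run therefore does not bear on the assumption about NC or on smaller changes. The threshold was an adjusted p of 0.05. Lists were described by counts and medians, without a test. Named in detail were members with all 4 ratios on 1 side of NC, those without overlap between siRNAs and a difference of at least 0.3, the 3 highest and lowest per comparison, and all assembly factors. The values of 1 member are not reported here singly. Members, lists and rules were chosen with earlier results of these data known. Alternatives left out each library, kept incomplete genes, changed the gene set, centring, moderation or spread, removed length and GC trends, or blocked on replicate number. Python 3.11.15, pandas 2.3.3, numpy 2.4.6 and matplotlib 3.10.9 were used.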

Additional observations from a re-analysis of the deposited data

How the results depend on the processing

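No gene passed an adjusted p of 0.05 in any of the 3 comparisons under any alternative run, and the smallest adjusted p of an Nduf gene was 0.52, in siDhx30 against siTfam without siTfam replicate 1. Medians are log2. In siTfam against NC the subunit median was 0.19 and ran from 0.19 to 0.27 when single libraries were left out, with 0.23 among protein-coding genes; that of assembly factors was 0.23 and ran from 0.11 to 0.23, with 0.061 once length and GC trends were removed; that of complexes II to V was 0.215 and ran from 0.185 to 0.215, with 0.12 once those trends were removed. In siDhx30 against NC the subunit median of -0.017 was -0.0097 among protein-coding genes, -0.0065 after centring and 0.016 with trends removed. It was 0.00030 and 0.0094 without siDhx30 replicates 1 and 2, so it has no settled sign. That of assembly factors was 0.072, with -0.018 and 0.15 without these replicates. That of complexes II to V was 0.080, with 0.016 and 0.070 without them. In siDhx30 against siTfam the subunit median of -0.17 ran from -0.215 to -0.156, and was -0.055 with trends removed; that of assembly factors was -0.16 and ran from -0.14 to -0.0073, and was -0.061 with trends removed; that of complexes II to V ran from -0.17 to -0.041. The cause of these shifts was not tested. With the replicate block, siDhx30 against siTfam gave 0 calls and a smallest member limma adjusted p of 0.886. The subunit, assembly factor and complexes II to V medians stayed at -0.169, -0.157 and -0.105. In this balanced design the block cannot change a difference, so the equal medians are no check. Same-numbered libraries deviated together over 12088 genes (Pearson r = 0.254), but with 2 pairs the labels do not establish pairing. NC is a single library and could not be left out. Unknown depth limits all values: a ratio of low counts cannot be told from one of high counts.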
